A study of Homo sapiens with 6 samples.

Results

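Transforming growth factor beta (TGF-beta) signalling was followed through 10 of its genes in libraries labelled Huh7, a line from a human hepatocellular carcinoma, under low oxygen. The genes were taken by name, and their transcripts were summed per gene, out of 58478 genes in the table. They are the ligand genes TGFB1, TGFB2, TGFB3 and INHBA, the receptor genes TGFBR1 and TGFBR2, the signal carrier SMAD3, the inhibitors SMAD7 and SKIL, and the matrix gene TGFBI. RNA came from 3 libraries of cells kept at 1% oxygen for 24 h (hypoxia, C4 to C6) and 3 of cells kept at 21% oxygen, also labelled 24 h (normoxia, C1 to C3). Both groups carry the genotype label WT, and no transgene or deletion is named. Although the libraries are called biological replicates, the labels do not say how the cultures were separated, so the p-values cover only the variation among these 6 libraries.

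TGF-beta ligands are secreted in a latent form. Once released they bind TGFBR2, which activates TGFBR1, and TGFBR1 in turn phosphorylates SMAD2 and SMAD3, which enter the nucleus with SMAD4. SMAD7 and SKIL restrain this signal and are themselves among its targets, so they form feedback loops. INHBA encodes the beta A subunit of activin A, a related ligand that acts on SMAD2 and SMAD3 through other receptors. TGFBI encodes a secreted matrix protein named for its induction by TGF-beta. In liver, TGF-beta is known for slowing hepatocyte growth and for driving fibrosis.

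Libraries held 37621426 to 40794783 expected counts. NDRG1, a gene known to respond to low oxygen, stood at 7640 ± 203 CPM (counts per 1000000 counts, after scaling between libraries) in hypoxia and 378.9 ± 7.01 CPM in normoxia, and CA9, another, at 454.3 ± 20.5 and 56.2 ± 1.51 CPM (SD, n = 3 each). Markers of hepatocytes were mostly missing, with 7 of 10 under 1 CPM in both groups and AFP, APOA1, TTR and GPC3 at 0 counts. Albumin (ALB) had 1, 0 and 0 counts in hypoxia and 1, 1 and 3 in normoxia. Huh7 is known for making albumin and alpha-fetoprotein (AFP), so these values go against the label and leave the identity of the line in doubt; it was not tested here. The summed level of this list was 20.8 to 21.6 CPM in hypoxia and 8.87 to 10.7 CPM in normoxia. All 3 tested genes of the list rose: TF had 12.1 CPM in hypoxia and 8.24 CPM in normoxia, and HNF4A 7.01 and 1.30 CPM. SERPINA1 had 1.83 and 0.067 CPM and passed the filter on low counts through its hypoxia libraries alone. Of 8 fibroblast and stellate cell markers, 6 were under 1 CPM, and COL1A2 and PDGFRA were at 0. The sum of the 8 was 58.6 to 67.9 CPM in hypoxia and 72.6 to 75.3 CPM in normoxia, mostly COL1A1. COL1A1 fell, with 56.9 CPM in hypoxia and 71.4 CPM in normoxia, while PDGFRB (6.11 and 2.13 CPM) and COL3A1 (0.413 and 0.151 CPM) rose. COL3A1 passed the filter on low counts through its hypoxia libraries alone. Of 8 endothelial and immune markers, 5 were under 1 CPM, KDR and PTPRC were at 0, and the sums were 9.57 to 11.1 CPM in hypoxia and 12 to 12.5 CPM in normoxia. These close sums hold large opposite changes: CDH5 had 0.453 CPM in hypoxia and 9.15 CPM in normoxia (20-fold fall), CSF1R 4.85 and 0.378 CPM (12.7-fold rise) and PECAM1 4.86 and 2.11 CPM (2.30-fold rise). VWF also fell, with 0.196 CPM in hypoxia and 0.504 CPM in normoxia, so 2 of the 4 tested markers rose and 2 fell. VWF passed the filter on low counts mainly through its normoxia libraries. The part of all these markers in the results was not tested. In bulk RNA, fewer cells of a type and less RNA per cell cannot be told apart.

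Upstream DNA is shown for 4 of the 10 genes: INHBA, which had the largest rise of the 10, SMAD3, which also rose, TGFB3, which had the smallest called rise, and TGFBR2, which fell. The sequences come from RefSeq windows on GRCh38.p14, each ending just before a RefSeq start or, for INHBA and TGFBR2, at the last base before the exon of the most abundant transcript. Those of INHBA, SMAD3 and TGFB3 lie inside the annotated gene, since other transcripts start further upstream. They are written 5′ to 3′ on the strand of the gene. Capitals mark ACGTG or GCGTG, the core letters that hypoxia-inducible factors (HIF) are known to bind, on either strand. The run of capitals CACGTG in SMAD3 is a match on each strand.
INHBA, chr7:41703109-41703340, minus strand: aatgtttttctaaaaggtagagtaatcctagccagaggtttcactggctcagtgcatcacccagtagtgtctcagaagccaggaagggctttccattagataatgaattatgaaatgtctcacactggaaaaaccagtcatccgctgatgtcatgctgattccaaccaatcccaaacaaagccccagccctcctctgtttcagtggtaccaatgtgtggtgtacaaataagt
SMAD3, chr15:67065352-67065601, plus strand: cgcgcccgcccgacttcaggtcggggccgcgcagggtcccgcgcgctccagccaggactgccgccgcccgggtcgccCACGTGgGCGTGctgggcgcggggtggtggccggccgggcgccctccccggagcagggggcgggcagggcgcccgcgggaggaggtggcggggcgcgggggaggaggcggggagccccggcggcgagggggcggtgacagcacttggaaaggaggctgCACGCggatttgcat
TGFB3, chr14:75981996-75982245, minus strand: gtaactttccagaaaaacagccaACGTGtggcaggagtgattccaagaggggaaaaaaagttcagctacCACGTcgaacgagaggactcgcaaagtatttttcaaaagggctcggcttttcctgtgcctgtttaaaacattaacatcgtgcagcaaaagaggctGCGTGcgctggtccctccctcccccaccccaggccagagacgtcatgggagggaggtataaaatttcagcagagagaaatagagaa
TGFBR2, chr3:30606351-30606501, plus strand: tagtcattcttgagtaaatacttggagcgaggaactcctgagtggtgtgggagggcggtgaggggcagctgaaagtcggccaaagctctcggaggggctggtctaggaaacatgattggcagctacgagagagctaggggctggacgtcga

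Over the 250 bases before the RefSeq start nearest to the most abundant transcript, 6 of the 10 genes held ACGTG or GCGTG. Of 27305 windows of that length, 1 per gene, 43.1% held either, and no test was made of the 6 against it. Those were the first window listed for each gene, not the one nearest to its most abundant transcript. The INHBA window held neither, and the SMAD3 window held 4 matches. TGFB2, which fell, and TGFB3 had 3 matches each, TGFBR1 had 2, TGFB1 and SKIL had 1 each, and TGFBI, TGFBR2 and SMAD7 had none. In TGFB2, as in SMAD3, 2 of the matches overlap as CACGTG, which is counted on each strand. CAGAC, letters that SMAD proteins are known to bind, was found on either strand in 4 of the 10, against 37.8% of the 27305 windows. The longer GTCTAGAC was found in none of the 10, against 0.176%. The RefSeq start used lay 29861 bases from the start of the most abundant transcript for TGFBI, 1087 for SMAD7, 899 for TGFB2 and 804 for TGFB3. A match is a description of letters and says nothing of binding.

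In the edgeR test 7 of the 10 genes rose in hypoxia, 2 fell, and SKIL missed the threshold. Of 17396 genes tested in all, 72.8% changed, 36.5% upward and 36.3% downward, so a change in itself is common here. The even split depends on the scaling, with 5207 risen and 7431 fallen genes with library totals, and 4875 and 6807 in limma on log2(FPKM + 0.5). The groups did not overlap for 9 of the 10, against 75.7% of tested genes. The median log2 change was 0.97 over the 10 genes and 0.0246 over all genes tested. TGFB2 passed the filter on low counts through its normoxia libraries and TGFBI mainly through its hypoxia libraries, so for these the filter itself favoured a difference.

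**Figure D1:**
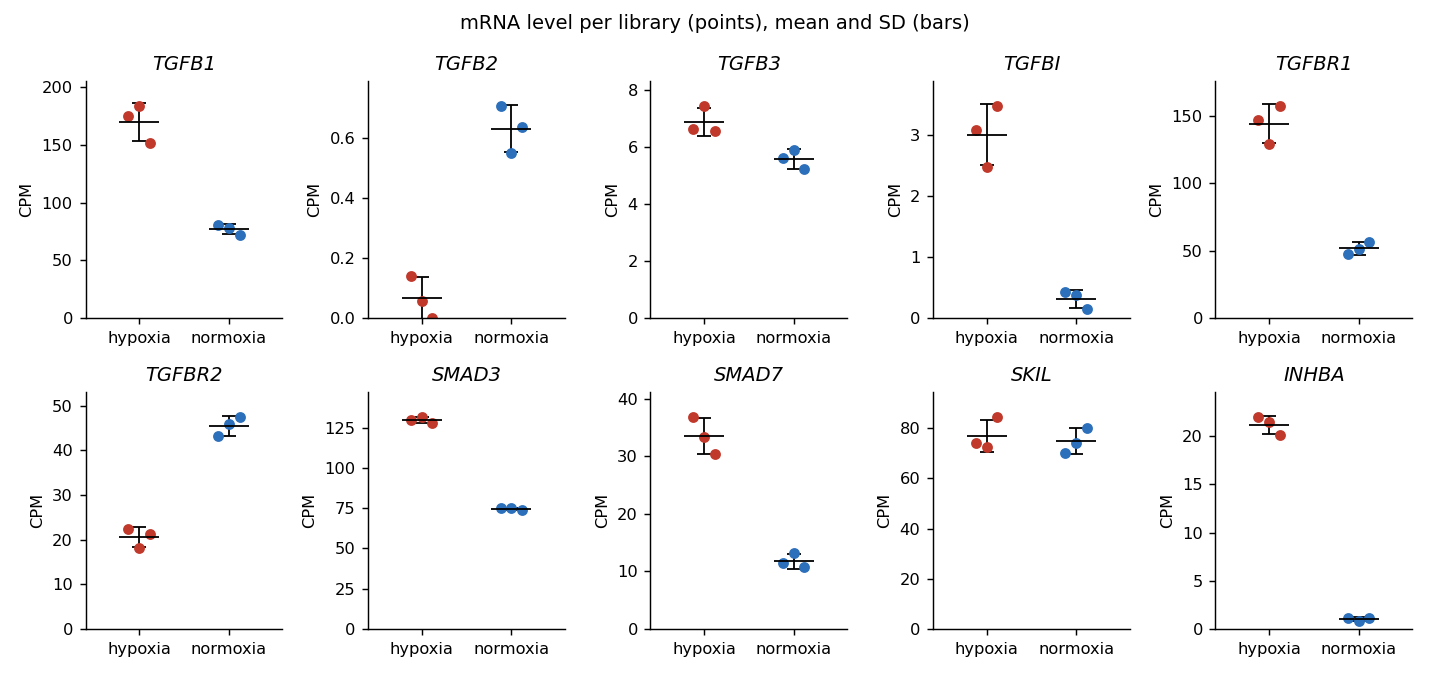
Level of each gene in CPM, with 1 point per library, hypoxia on the left and normoxia on the right, and the mean and SD as bars (n = 3 each). Only SKIL has groups that overlap, and TGFB2 and TGFBR2 are lower in hypoxia.

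INHBA stood furthest apart among the ligands. The gene (ENSG00000122641.10, chromosome 7, 41667168 to 41705834 on GRCh38, minus strand) had 22, 21.4 and 20.1 CPM in hypoxia C4 to C6, against 1.18, 0.80 and 1.17 CPM in normoxia C1 to C3. Every hypoxia library lay far above every normoxia library, and libraries of a group lay close together. The log2 change was 4.33 ± 0.13 (SE), a 20.1-fold rise (edgeR adjusted p = 5.23e-10). With limma on log2(FPKM + 1) it was 2.63, since a pseudocount shrinks the change of a gene that is low in normoxia.

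The rise was shared by the transcripts of INHBA. The protein-coding INHBA-201 rose 17.9-fold and INHBA-203 21.4-fold, and INHBA-204, a processed transcript, 17.7-fold (edgeR adjusted p = 6.01e-05, 3.46e-05 and 0.0182 over all transcripts tested). INHBA-201 had 402.1, 355 and 310 expected counts in hypoxia and 23.1, 18.3 and 24.9 in normoxia. INHBA-204 had 50.4, 50 and 48.4 in hypoxia and 5.99, 0 and 3.17 in normoxia. It passed the low-count filter through its hypoxia libraries alone, so the filter itself favoured its call.

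TGFB1, the most abundant TGF-beta ligand gene here, roughly doubled. The gene (ENSG00000105329.9, chromosome 19, 41301587 to 41353911, minus strand) had 174.6, 183.2 and 151.8 CPM in hypoxia, against 80.3, 78.4 and 72.4 CPM in normoxia. Hypoxia C6 was the lowest of its group and still lay well above normoxia. Hypoxia over normoxia, this was a log2 change of 1.14 ± 0.07 (SE), or 2.21-fold (edgeR adjusted p = 1.04e-07), and nearly all counts lay on the protein-coding transcript TGFB1-201. TGFB1 shares exon positions with exons of HNRNPUL1 on the opposite strand, which stood at 146.7 ± 6.04 CPM in hypoxia and 174.9 ± 5.24 CPM in normoxia (SD, n = 3 each). Library preparation was strand-specific per the labels, but whether the counting used the strand is not given, so part of the reads of either gene could belong to the other.

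TGFB2 was close to absent in hypoxia. The gene (ENSG00000092969.11, chromosome 1, 218346235 to 218444619, plus strand) had 5, 2 and 0 counts in hypoxia libraries, against 28, 22 and 25 in normoxia libraries. All counts lay on 1 of its 4 transcripts, TGFB2-202. Its mean level was 0.066 CPM in hypoxia, under the 0.0868 CPM that a count of 0 allows at this depth (3 counts per library, counting error only), and 0.631 CPM in normoxia. The log2 change was -3.17 ± 0.61 (SE; edgeR adjusted p = 0.000753), with a 95% interval of -4.51 to -1.82, and -4.28 without hypoxia C4.

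TGFB3 differed least among the ligands. The gene (ENSG00000119699.7, chromosome 14, 75958099 to 75982991, minus strand) had 6.65, 7.43 and 6.56 CPM in hypoxia, against 5.64, 5.90 and 5.23 CPM in normoxia. The groups did not overlap, but the gap between them was small. The log2 change was 0.30 ± 0.11 (SE; edgeR adjusted p = 0.0285). The call was lost with DESeq2 (log2 change 0.282), with library totals (0.147), without a low-count filter (0.272), in limma on FPKM, for its most abundant transcript (0.209) and without hypoxia C5 (0.243), normoxia C1 (0.295) or normoxia C3 (0.246). The main coding transcript TGFB3-201 differed by 0.15 on the log2 scale (adjusted p = 0.574).

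Per length, TGFB1 made up most of the mRNA of the 3 TGF-beta ligand genes in every library. Its share of their summed FPKM (counts per kilobase of transcript and 1000000 assigned counts) was 96.6%, 96.6% and 96% in hypoxia, against 93.5%, 93.6% and 93.6% in normoxia. The TGFB3 share was 3.57% ± 0.342 in hypoxia and 6.10% ± 0.0685 in normoxia, and the TGFB2 share 0.0168% ± 0.0183 and 0.352% ± 0.0446 (SD, n = 3 each). For each share the libraries of the groups did not overlap. The exact two-sided permutation p was 0.1 for each of the 3 shares, also after adjustment, which is the smallest p that 3 against 3 libraries allow.

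The receptor genes moved in opposite directions. TGFBR1 (ENSG00000106799.12, chromosome 9, 99104038 to 99154192, plus strand), the type I receptor and kinase of the SMADs, had 146.9, 129.1 and 157.2 CPM in hypoxia, against 47.6, 51.1 and 56.9 CPM in normoxia. Every hypoxia library was more than double every normoxia library. This came to a log2 change of 1.48 ± 0.08 (SE), or 2.78-fold (edgeR adjusted p = 4.43e-08).

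TGFBR2 (ENSG00000163513.17, chromosome 3, 30606502 to 30694142, plus strand), the type II receptor that binds the ligand, was lower in hypoxia. It had 22.4, 18.2 and 21.3 CPM in hypoxia, against 43.2, 46 and 47.5 CPM in normoxia. The hypoxia libraries all lay under the lowest normoxia library by a wide margin. Its log2 change was -1.14 ± 0.08 (SE), a 2.21-fold fall (edgeR adjusted p = 2.57e-07).

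The ratio of the receptor mRNAs followed from these opposite changes. Per length, TGFBR1 over TGFBR2 was 7.78, 8.84 and 8.59 in hypoxia, against 1.29, 1.33 and 1.38 in normoxia. The log2 ratio was 2.65 higher in hypoxia, with an exact two-sided permutation p of 0.1, the smallest that the design allows. A ratio within a library does not depend on the scaling between libraries. It was computed after the values of both genes had been seen.

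**Figure D2:**
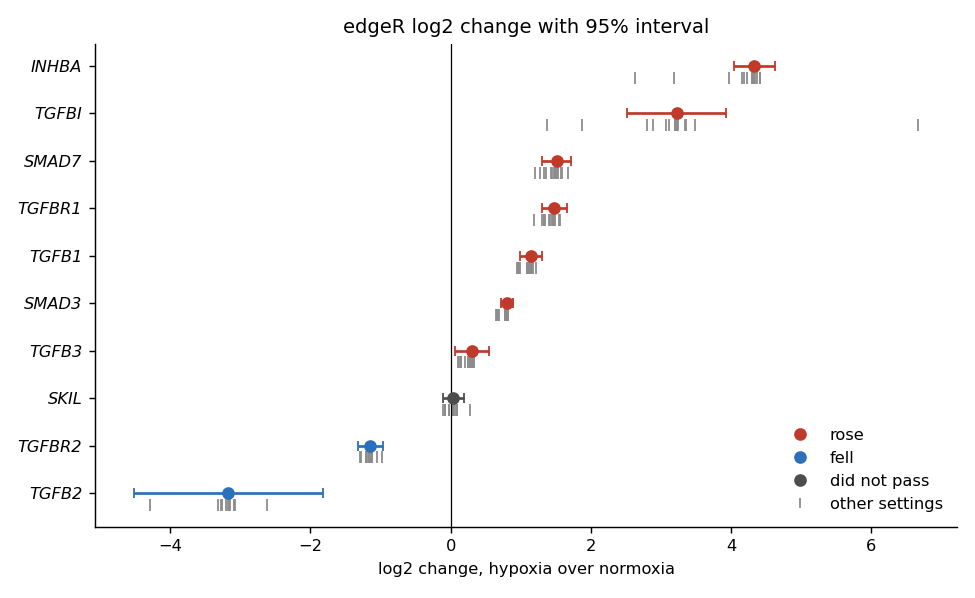
The log2 change of each gene, hypoxia over normoxia, from edgeR with its 95% interval (points and bars), and the values under the other settings (grey ticks). INHBA and TGFBI are at the top with 4.33 and 3.22, the TGFBI ticks spread most, and the SKIL interval includes 0.

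SMAD3, which carries the signal into the nucleus, rose evenly. The gene (ENSG00000166949.15, chromosome 15, 67063763 to 67195195, plus strand) had 129.9, 131.4 and 128 CPM in hypoxia, against 74.8, 75.1 and 73.9 CPM in normoxia. In CPM, the spread within each group was the smallest, relative to the mean, of the 10 genes. SMAD3 had a log2 change of 0.80 ± 0.04 (SE), or 1.74-fold (edgeR adjusted p = 1.69e-08). The long coding transcript SMAD3-201 rose 1.66-fold, the shorter coding SMAD3-204 2.72-fold and the retained-intron transcript SMAD3-207 2.59-fold. SMAD3-202 had 149.5 expected counts in normoxia C3 and under 1 in every other library.

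Of the inhibitors, SMAD7 rose and SKIL missed the threshold. SMAD7 (ENSG00000101665.9, chromosome 18, 48919853 to 48952052, minus strand), which blocks the type I receptor, had 36.8, 33.2 and 30.5 CPM in hypoxia, against 11.4, 13.2 and 10.7 CPM in normoxia. Each hypoxia library had more than double the level of any normoxia library. SMAD7 had a log2 change of 1.51 ± 0.10 (SE), or 2.85-fold (edgeR adjusted p = 1.31e-07). The coding transcript SMAD7-201 rose 3.08-fold and the retained-intron SMAD7-202, with about as many counts, 2.43-fold.

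SKIL (ENSG00000136603.13, chromosome 3, 170357678 to 170396835, plus strand), a corepressor of the SMADs, had 74.1, 72.5 and 84.5 CPM in hypoxia, against 70.1, 74.2 and 80.3 CPM in normoxia. The groups overlapped, with the highest value in hypoxia C6 and the lowest in normoxia C1. Its log2 change was 0.04 ± 0.07 (SE; edgeR adjusted p = 0.604), and its 95% interval of -0.11 to 0.19 leaves out a change of the size seen in SMAD7. The sign turned with library totals (-0.11) and in limma on FPKM.

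The most abundant SKIL transcript alone, SKIL-203, had a rise of 0.23 ± 0.06 (log2, SE) and passed (edgeR adjusted p = 0.0282 over all transcripts tested). The counts of SKIL-201 and SKIL-204, both long and protein-coding, were divided differently in 1 library. SKIL-201 had 834.8, 3.48 and 853.7 expected counts in hypoxia and 833.9, 1067 and 1114 in normoxia. SKIL-204 had 5.71, 698.5 and 0.04 in hypoxia and 0.46, 1.94 and 0.01 in normoxia. In hypoxia C5 the counts thus stood on the other transcript, while the gene sum was near that of the other libraries.

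TGFBI rose and was low in both groups. The gene (ENSG00000120708.16, chromosome 5, 136028895 to 136063818, plus strand) had 3.09, 2.48 and 3.47 CPM in hypoxia, against 0.43, 0.37 and 0.15 CPM in normoxia. These are 110, 86 and 116 counts in hypoxia and 17, 15 and 6 in normoxia. The log2 change was 3.22 ± 0.32 (SE), or 9.35-fold (edgeR adjusted p = 4.90e-06), with 6.67 when only the most abundant transcript was taken and 1.37 in limma on log2(FPKM + 1). The direction held in all 15 other settings, and the size varied widely.

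Few of the TGFBI counts lay on its long coding transcript. TGFBI-201, of 2712 bases and protein-coding, had 0, 16.5 and 0 expected counts in hypoxia and 0 in each normoxia library. TGFBI-207, of 1034 bases, had 38.7, 37.5 and 45.4 in hypoxia and 1.46, 0 and 0 in normoxia, and TGFBI-213, of 1691 bases, 52.6, 18.9 and 17.1 in hypoxia and 14.5, 13 and 3 in normoxia. TGFBI-207 passed the edgeR test (adjusted p = 0.0023 over all transcripts tested) and TGFBI-213 did not (adjusted p = 0.15). TGFBI-207 passed the low-count filter through its hypoxia libraries alone, so the filter itself favoured a difference. Both TGFBI-207 and TGFBI-213 begin downstream of the first exon of TGFBI-201. The longer TGFBI-206, of 2469 bases and labelled for nonsense-mediated decay, was not tested. It had 12.5, 0 and 29.4 expected counts in hypoxia and 0, 2.02 and 0 in normoxia.

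By profile, the genes closest to TGFBI were FXYD3, ENSG00000277173 and LINC02395. The measure was the Euclidean distance of log2(CPM + 0.5), centred per gene, over 6 libraries, and it was 0.25, 0.31 and 0.31. FXYD3 had 2.02 ± 0.273 CPM in hypoxia and 0.142 ± 0.08 CPM in normoxia (SD, n = 3 each). ENSG00000277173 had 4.56 ± 0.375 and 0.815 ± 0.132 CPM, and LINC02395 2.12 ± 0.434 and 0.201 ± 0.176 CPM. All 3 genes, like TGFBI, were low in every library.

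**Figure D3:**
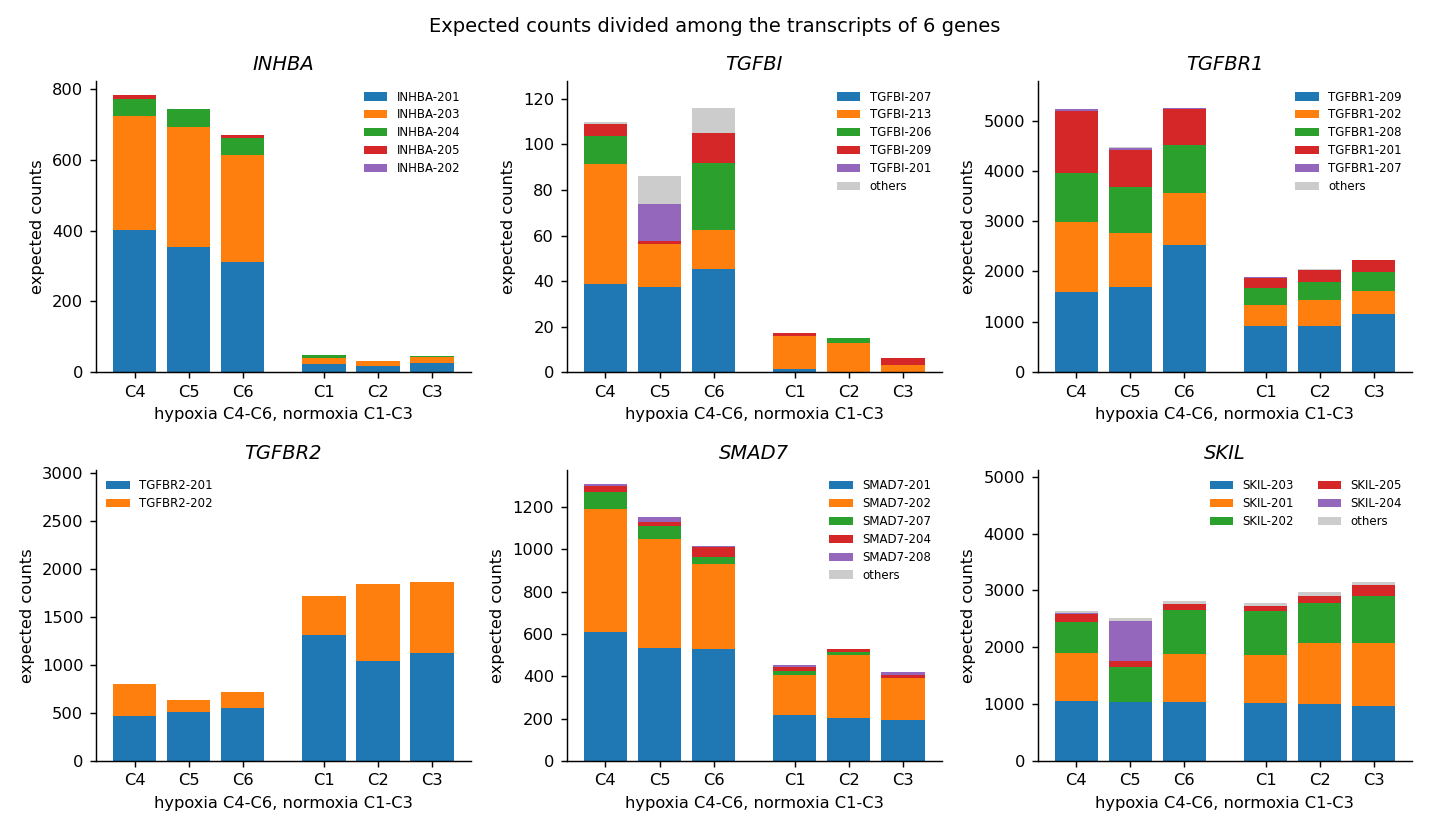
Expected counts of 6 genes in each library, hypoxia C4 to C6 on the left and normoxia C1 to C3 on the right, with the bars divided among transcripts. INHBA-201 and INHBA-203 rise together, TGFBI counts are spread over several transcripts, and SKIL-204 holds 698.5 counts in hypoxia C5 in place of SKIL-201.

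Of 80 transcripts of the 10 genes, 34 passed the low-count filter, of which 16 were called risen by edgeR, 3 fallen and 15 neither; without 1 library, 14 to 16 changed in all. Over all 74527 transcripts tested 15.6% rose and 14% fell, 29.5% together. The fallen ones were TGFB2-202 and both transcripts of TGFBR2, TGFBR2-201 (log2 change -1.03 ± 0.12 SE) and TGFBR2-202 (-1.49 ± 0.44 SE), the second of which only just passed (edgeR adjusted p = 0.0497). All 5 tested transcripts of TGFBR1 rose, among them TGFBR1-201 by 4.66-fold and TGFBR1-209 by 2.19-fold. The calls of TGFB2-202 and TGFBR1-207, both low in counts, were also near the threshold (edgeR adjusted p = 0.046 and 0.041). RSEM divides reads among transcripts that share exons, so these values are less certain than the gene sums. Some of the called transcripts passed the low-count filter through a single group, so the filter itself favoured their calls. Among them were INHBA-204, TGFBI-207 and TGFBR1-207 through hypoxia and TGFB2-202 through normoxia.

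Ordered by length-scaled level, the hypoxia libraries had TGFB1 on top at 59.1 ± 5.15 FPKM, then TGFBR1 at 36 ± 2.61, SMAD3 at 28.6 ± 2.41, SKIL at 28 ± 1.52 and SMAD7 at 13.8 ± 1.25 FPKM (SD, n = 3). INHBA followed at 7.66 ± 0.195, TGFBR2 at 4.30 ± 0.504, TGFBI at 2.21 ± 0.59, TGFB3 at 2.18 ± 0.0487 and TGFB2 at 0.0107 ± 0.0116 FPKM. SMAD3 and SKIL overlapped, as did TGFBI and TGFB3. In normoxia the order was TGFB1 at 30.1 ± 1.72 FPKM, SKIL at 29.7 ± 2.94, SMAD3 at 17.8 ± 0.867, TGFBR1 at 14.1 ± 1.06 and TGFBR2 at 10.5 ± 0.483 FPKM (SD, n = 3). Below these stood SMAD7 at 5.45 ± 0.481, TGFB3 at 1.96 ± 0.133, INHBA at 0.401 ± 0.0884, TGFBI at 0.228 ± 0.0724 and TGFB2 at 0.113 ± 0.0145 FPKM. There TGFB1 and SKIL overlapped, as did INHBA and TGFBI. Thus INHBA stood above TGFBR2 in hypoxia and far below it in normoxia.

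The wider pathway was read from lists of other genes, each to be set beside the 36.5% of all tested genes that rose and the 36.3% that fell under the same scaling. Among 23 other ligands of the superfamily, 10 could be tested: 5 rose, 3 fell, 2 missed the threshold, and the median log2 change was 0.61. INHA, whose product joins that of INHBA to form inhibin A, an antagonist of activin, had 11.5 ± 0.822 CPM in hypoxia and 3.11 ± 0.301 CPM in normoxia (SD, n = 3 each), a 3.70-fold rise. INHBE rose 4.73-fold to 5.14 CPM and INHBB 1.62-fold to 3.42 CPM, both activin subunit genes, while INHBC, another, had 8, 2 and 0 counts in hypoxia and 7, 0 and 3 in normoxia and was not tested. BMP5 had the largest change among the 10 tested, with 2.77 ± 0.273 CPM in hypoxia and 19.8 ± 1.02 CPM in normoxia (SD, n = 3 each), a 7.15-fold fall. BMP2, like BMP5 a bone morphogenetic protein, rose 1.98-fold, and GDF11, which signals through activin receptors, fell 2.45-fold.

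Among 14 other receptors and coreceptors, 12 could be tested: 3 rose, 5 fell, 4 missed the threshold, and the median was -0.11. The coreceptors TGFBR3 and ENG were well below their normoxia levels. TGFBR3 (betaglycan), which presents TGF-beta to TGFBR2, had 37.5 ± 1.38 CPM in hypoxia and 141.2 ± 4.93 CPM in normoxia (SD, n = 3 each), a log2 change of -1.91 ± 0.05 (SE). ENG (endoglin) had 38.1 ± 2.12 and 96 ± 2.82 CPM, a log2 change of -1.33 ± 0.05. BAMBI, a decoy receptor, fell by 0.29 and lost its call for its most abundant transcript (adjusted p = 0.0519). Of the receptors that activin uses, ACVR1B fell by 0.23, a call lost for its most abundant transcript (adjusted p = 0.0586), while ACVR2A and ACVR2B missed the threshold, with log2 changes of -0.08 and 0.0068 and 95% intervals of -0.33 to 0.16 and -0.14 to 0.15.

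Among 23 other SMADs and SMAD regulators, 22 could be tested: 9 rose, 11 fell, 2 missed the threshold, and the median was -0.12. SMAD2, the partner of SMAD3, fell by 0.16 on the log2 scale to 304.4 CPM in hypoxia, against 339.4 CPM in normoxia. SMAD4, shared by all branches, rose by 0.19, a call lost in 5 of 15 other settings. SMAD6, the inhibitor related to SMAD7, fell by 0.71 ± 0.07 (SE), opposite to SMAD7. SMAD9, of the BMP branch, had 25.1 ± 0.494 CPM in hypoxia and 1.21 ± 0.133 CPM in normoxia (SD, n = 3 each), a 20.7-fold rise. The other SMADs of that branch were lower in hypoxia, SMAD1 with a log2 change of -0.66 (12.1 against 19.2 CPM) and the more abundant SMAD5 with -0.15 (87.5 against 97 CPM), a call lost in 5 of 15 other settings, among them without hypoxia C5, normoxia C2 or normoxia C3. TGIF1, a corepressor, rose 1.78-fold, and FKBP1A, which binds type I receptors, fell by 0.16 but stood at 0.208 (adjusted p = 0.125) for its most abundant transcript.

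Among 21 genes of latency, activation and extracellular binding, 11 could be tested: 6 rose, 3 fell, 2 missed the threshold, and the median was 0.19. LTBP1, which anchors latent TGF-beta in the matrix, had 0.531 CPM in hypoxia and 0 counts in normoxia, at least 7.01-fold higher against a floor of 3 counts per library. It passed the low-count filter through its hypoxia libraries alone, so the filter itself favoured its place among the 6. THBS1, an activator of latent TGF-beta, fell 2.13-fold, and ITGB8, an integrin chain that also activates it, rose 1.54-fold. FURIN, the protease that cleaves the precursor, fell by 0.29. FSTL3, which binds activin, was the most abundant of the list at 463.1 ± 33 CPM in hypoxia and 404.9 ± 17.2 CPM in normoxia (SD, n = 3 each). Its rise of 0.19 lost the call in 5 of 15 other settings, and that of LTBP4 (0.16) in 12 of 15.

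Among 25 textbook targets of TGF-beta, 22 could be tested: 12 rose, 7 fell, 3 missed the threshold, and the median was 0.455. CDKN1A (p21), a cell cycle inhibitor, had 456.6 ± 18.4 CPM in hypoxia and 56.7 ± 2.93 CPM in normoxia (SD, n = 3 each), an 8.05-fold rise. BHLHE40, a transcriptional repressor, rose 8.49-fold and PMEPA1, a feedback inhibitor of TGF-beta signalling, 1.57-fold. Some targets, CDKN1A and BHLHE40 among them, are known to respond to low oxygen as well. Which signal lay behind the change of any target was not tested. CCN2, another textbook target, had 0.615 ± 0.0948 CPM in hypoxia and 3.38 ± 0.698 CPM in normoxia, a 5.45-fold fall. MYC, which TGF-beta is known to repress, fell 3.10-fold, and ID1 fell by 0.16 on the log2 scale. With repressed genes among the targets, the counts and the median have no single expected direction. JUNB rose 4.10-fold. Of the other ID genes on the list, ID2 rose 2.19-fold and ID3 fell 3.02-fold. ANGPTL4 had 6.94 CPM in hypoxia and 0.10 CPM in normoxia, a 66.7-fold rise, and passed the low-count filter through its hypoxia libraries alone.

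**Figure D4:**
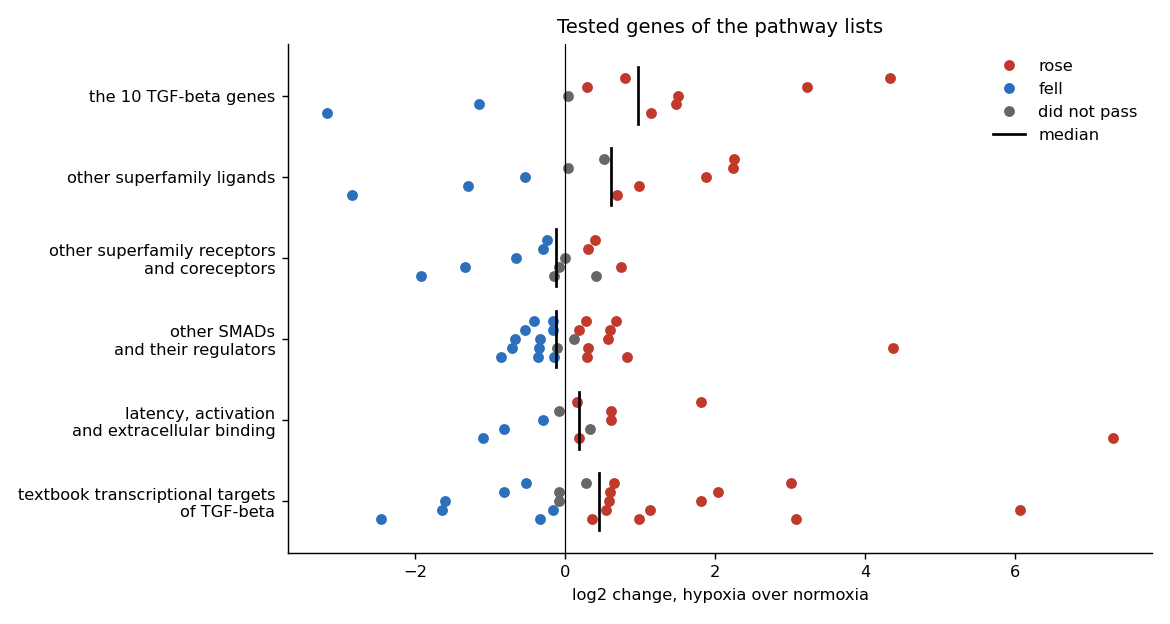
The log2 change, hypoxia over normoxia, of each tested gene of the 10 TGF-beta genes and the 5 pathway lists, coloured by its call in the edgeR test, with the median of each list as a black line. The medians run from -0.12 for the SMADs and their regulators to 0.97 for the 10 genes, and each list holds risen and fallen genes. The point at 7.31 is LTBP1, whose fitted change depends on the prior count because it had no counts in normoxia.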

How the data were processed

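The 6 libraries were made from rRNA-depleted total RNA and read from both ends, per the labels' protocols. The submitters' processing notes name cutadapt, HISAT2, RSEM and GRCh38, with no versions. Neither the annotation release nor the strand setting of the counting is stated there. The authors deposited 1 table of 251062 transcript rows with an expected count (reads divided among transcripts), an FPKM and a length for each. The tests used the deposited expected counts; 6 per-library FPKM columns were not used. Columns name a condition but match no replicate number of the labels, so they were mapped to groups only.

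Rows were joined to GENCODE release 29, which gave a gene for 202907 of them. The other 48155 rows, with 6.12% to 6.39% of the counts of a library, stayed out, so a gene sum can be incomplete. Gene sums were rounded to whole numbers, filtered by filterByExpr, scaled by TMM and tested with edgeR 4.0.16 in R 4.3.3 (two-sided quasi-likelihood test, Benjamini-Hochberg adjustment over 17396 genes, threshold 0.05). The same fit was made on 74527 transcripts. The SE is the log2 change over the square root of F. CPM is scaled by TMM. Length-scaled levels (FPKM) were recomputed from the counts and the deposited lengths, per 1000000 counts assigned to genes. Shares and ratios were compared by exact permutation tests. The edgeR fit was tested on simulated data in which only a small part of the genes changed. That test does not cover scaling where most genes change, as they did here.

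Alternatives were DESeq2 1.42.0, other scalings and filters, limma 3.58.1 on log2(FPKM) with pseudocounts of 0.5, 0.1 and 1, the most abundant transcript alone, and leaving out each library. The receptor ratio was added after the data were seen. The 10 genes and the lists were chosen with earlier results of these data known. Beyond the 10, the 3 most expressed changed genes of each pathway list were named, along with the 3 genes closest to TGFBI in profile and NDRG1, CA9 and ALB as checks. SMAD9, SMAD6, SMAD4, INHBB, INHBE, ACVR1B, ACVR2A, ACVR2B, CCN2, PMEPA1, CDKN1A, THBS1, LTBP1, ITGB8, BMP5, INHBC, SMAD1, SMAD5, CDH5, CSF1R and PECAM1 were named after their values were seen. So were TF, HNF4A, SERPINA1, COL1A1, PDGFRB, COL3A1, VWF, ANGPTL4, JUNB, ID2 and ID3. From the list of targets, 1 gene is not reported here and is left out of its counts. Motifs were searched in RefSeq windows on GRCh38.p14. Counting error and the unmatched rows limit the precision of low genes.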

Additional observations from a re-analysis of the deposited data

How the results depend on the processing

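Of the 10 genes, 8 kept their direction and their side of the edgeR threshold in every alternative that could be fitted for them, up to 15 each. TGFB3 lost its call in 10 of 15, with log2 changes from 0.102 to 0.337. SKIL, which did not pass, turned to -0.111 with library totals, -0.082, -0.083 and -0.081 with limma on FPKM at pseudocounts of 0.5, 0.1 and 1, and ran from -0.026 without hypoxia C6 to 0.086 without normoxia C3, with -0.016 without normoxia C1. For its most abundant transcript alone SKIL gained a call, at 0.283 (edgeR adjusted p = 0.00422). The number of fallen genes among the 10 was 1 in place of 2 under the filter of FPKM 0.5 and under the 3 limma settings, which use that filter, because TGFB2 lies below it. Leaving out 1 library left 8 to 9 of the 10 changed, 6 to 7 of them risen and 2 fallen. Without length scaling, the share in hypoxia minus that in normoxia was 3.534 percentage points for TGFB1, -0.723 for TGFB2 and -2.811 for TGFB3. Without 1 library, these differences ran from 2.761 to 3.051 for TGFB1, from -0.361 to -0.321 for TGFB2 and from -2.724 to -2.416 for TGFB3. The log2 receptor ratio ran from 2.616 to 2.708 without 1 library. The alternatives were also read for 35 of the other named genes, of which 27 kept their call in all of them. FKBP1A turned to 0.208 for its most abundant transcript. ACVR2B, which did not pass, turned to -0.011 in DESeq2, -0.145 with library totals, -0.021 without a filter, -0.105, -0.118 and -0.093 in limma, and ran from -0.048 without hypoxia C4 to 0.042 without hypoxia C6, with -0.033 and -0.016 without normoxia C1 and C2. The cause was not tested. Over all genes tested the median log2 change was 0.025, and -0.127 with library totals, so small changes are relative to the scaling. It was 0.157 in DESeq2 and 0.128 without a filter, but these 2 settings also take in genes with few counts. Their medians are thus over a different set of genes. No paired analysis was possible because the columns carry no replicate number that matches the labels. TGFB2 and the normoxia level of TGFBI rest on few counts, which limits the size of their changes.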
